A study of Mus musculus with 52 samples.

Results

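Expression of 7 nephronophthisis genes was described across 13 clones of Cilia-APEX-IMCD3 cells, a mouse inner medullary collecting duct line: Dcdc2a, Nphp4, Invs, Nek8, Anks6, Iqcb1 and Glis2. Members were taken by gene symbol, and all 7 were found among 24421 symbols and passed the filter on low counts in every comparison. The set was chosen by the counts of Dcdc2a, which were lower in mutant than in control cells of these same libraries, so its mutant values are given as a description with no test. The question was whether this fall is shared by the other 6 members.

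The mutant clones carried base-edited missense alleles of Wdr34 or Wdr60, which encode the intermediate chains of the dynein-2 motor of retrograde ciliary transport. The study made Wdr34 p.Arg183Trp, Wdr34 p.Gly394Ser and Wdr60 p.Ala911Val in homozygous form, and an additional heterozygous base change arose in the Wdr60 clone and in the p.Gly394Ser clone. The labels do not say which allele the ciliated clones Wdr34-1 and Wdr34-3 carry, and the study had no p.Gly394Ser clone in its non-ciliated set. Among ciliated cells, the 3 mutant clones were Wdr34-1, Wdr34-3 and Wdr60, and the 4 controls were D8, H12, A4 and G7. The non-ciliated set held Wdr34 and Wdr60 as its 2 mutant clones, with AB, Co1, Co2 and Co3 as its 4 controls. By the study's description, control cells received the same base editor with a guide plasmid lacking a target. Among non-ciliated labels, only that of AB lacks the prefix BE, and the labels do not say what this means. Every clone is described as a single-cell line and was sequenced as 4 technical replicate libraries. The study describes serum starvation to induce cilia, while the labels give all samples the same serum medium, so whether serum differed between the states is not settled here. Cilia, any difference in serum, sequencing occasion and clone cannot be told apart between the states. The study describes 3 different mutant and 4 different control clones over both states, so ciliated and non-ciliated clones named Wdr34 or Wdr60 may be the same lines. The 4 controls of each state may likewise be the same lines under other names. The labels do not tie any clones between states, and each is counted once per state.

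Nephronophthisis is a recessive cystic and fibrotic kidney disease whose genes act mostly at the primary cilium. Invs (inversin), Nek8 (a NIMA-related kinase) and Anks6 (an ankyrin and SAM domain protein that binds and activates Nek8) sit together in the inversin compartment, the proximal part of the cilium. Nphp4 forms a module with Rpgrip1l at the transition zone, the gate at the ciliary base. Iqcb1 binds Cep290 at that gate, Glis2 encodes a Krüppel-like zinc finger transcription factor, and Dcdc2a encodes a doublecortin domain protein that binds microtubules along the ciliary axoneme.

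The members lie on 4 chromosomes of the GRCm38 build (RefSeq gene spans). Dcdc2a spans chr13:25055273-25210706 on the plus strand. Invs (chr4:48279707-48431956, plus strand) and Anks6 (chr4:47015365-47057327, minus strand) lie on the same chromosome as Nphp4 (chr4:152476706-152563184, plus strand). Iqcb1 (chr16:36828360-36872719, plus strand) shares its chromosome with Glis2 (chr16:4594320-4625141, plus strand), and Nek8 lies at chr11:78166106-78176695 on the minus strand. Upstream windows were found in the RefSeq promoter table for 5 of the 7 members. The window of Dcdc2a is shown because this gene differed most between clones. It holds the 250 bases before an annotated start, chr13:25055754-25056003 of GRCm38.p6, plus strand, 5′ to 3′, with each CG pair in capitals. This stretch lies inside the gene span given above, so the start it precedes is not the left end of that span.
Dcdc2a: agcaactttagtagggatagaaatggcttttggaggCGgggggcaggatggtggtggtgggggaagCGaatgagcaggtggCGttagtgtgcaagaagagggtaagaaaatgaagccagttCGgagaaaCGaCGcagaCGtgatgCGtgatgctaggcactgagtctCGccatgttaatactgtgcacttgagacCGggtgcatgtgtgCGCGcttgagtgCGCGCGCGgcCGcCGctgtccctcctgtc
It holds 18 CG pairs and 57.2% G or C, and 21.7% of 32851 RefSeq windows of this length hold at least as many CG pairs. Methylation was not measured here, and the window is given for orientation only.

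Libraries held 14816218 to 28084979 counts. Expression is given as CPM, counts scaled to a common library size after TMM normalisation over all 52 libraries, as mean ± SD over the 4 libraries of a clone unless stated. The 4 libraries of a clone differed beyond counting noise (chi-square per degree of freedom 1.99 to 104, median 5.47 over 78 pairs), with libraries of the ciliated Wdr60 clone and of control clone AB furthest apart. Of the collecting duct markers, Aqp2, the vasopressin-regulated water channel, had no count in ciliated cells or non-ciliated controls, whereas 8 to 10 of 12 epithelial and collecting duct markers exceeded a mean of 1 CPM in each group. The defining markers Foxi1 of intercalated cells and Slc34a1 of proximal tubule were at 0 throughout. Clone Wdr34-3 stood apart by the sum of its fibroblast markers, 28.0 to 35.8 CPM in its libraries against 1.04 to 3.05 CPM in ciliated controls. Of the 5 fibroblast markers, 2 passed the count filter in its comparison with controls. Only 1 of these 2 had a positive log2 fold change, so the sum does not speak for the whole list. Controls Co2 and G7 and the mutant clone Wdr34-3 were low in some epithelial markers and not in others. The adhesion molecule Cdh1 was 4.27 CPM in Co2 and 14.7 CPM in G7, against 251 to 391 CPM in the other non-ciliated and 609 to 649 CPM in the other ciliated controls, and Epcam was 2.89 and 13.7 CPM, against 180 to 386 and 631 to 836 CPM. The epithelial and collecting duct markers summed to 1001 to 1040 CPM in Co2 and 1686 to 1815 CPM in G7, against 2515 to 3520 and 3093 to 4405 CPM in the other controls of each state. In Wdr34-3, Epcam was 286 CPM and the sum 1740 to 1785 CPM, as low a sum as in G7, against 3132 to 3767 CPM in the other ciliated mutants. Other markers of the same list went the opposite way. Pax2 (280 and 315 CPM), Pax8 (303 and 427 CPM) and Cdh16 (269 and 857 CPM) were highest among the controls of each state in Co2 and G7. Among ciliated mutants, Wdr34-3 was highest in Cdh16 (587 CPM) but lowest in Pax2 (123 CPM) and Pax8 (238 CPM). Mutant differences are therefore also given without Wdr34-3, Co2 or G7. The edits are single-base changes, so counts of Wdr34 and Wdr60 do not check them.

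Dcdc2a varied more than any other member, and 4 of the 5 mutant clones, counted once per state, lay below every control clone of their state. In ciliated controls, D8 had 101, 103, 104 and 106 CPM in its libraries, G7 had 64.5, 61.1, 72.2 and 71.4 CPM, A4 had 32.9, 53.1, 55.4 and 56.1 CPM, and H12 had 29.8, 29.0, 34.2 and 36.0 CPM. In ciliated mutants, Wdr34-1 had 40.2, 40.3, 38.8 and 38.2 CPM, Wdr34-3 had 3.93, 5.67, 5.36 and 5.69 CPM, and Wdr60 had 3.11, 2.22, 2.54 and 4.29 CPM. Thus Wdr34-1 lay inside the control range, above H12 and overlapping A4, while all libraries of Wdr34-3 and Wdr60 lay below all control libraries.

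The non-ciliated cells showed lower levels and a wider spread of Dcdc2a among controls. Control Co2 had 81.1, 79.9, 76.8 and 76.2 CPM, Co1 had 22.4, 17.3, 20.9 and 21.1 CPM, Co3 had 14.7, 14.6, 15.3 and 14.5 CPM, and AB had 3.33, 3.06, 4.19 and 5.14 CPM. The Wdr34 clone had 2.03, 2.48, 3.11 and 2.92 CPM, and the Wdr60 clone had 0.313, 0.398, 0.176 and 0.251 CPM, which corresponds to 3 to 7 counts per library. The libraries of the Wdr34 clone overlapped those of control AB, whereas those of Wdr60 lay below all others.

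As a share of the control mean of its state, Dcdc2a stood at 62.4% in ciliated Wdr34-1, 8.19% in Wdr34-3 and 4.82% in Wdr60, and at 8.96% in non-ciliated Wdr34 and 0.968% in Wdr60. Relative to the lowest control clone, ciliated Wdr34-3 and Wdr60 were 6.25-fold and 10.6-fold lower. The non-ciliated Wdr60 clone was 13.8-fold below control AB, but the Wdr34 clone was only 1.49-fold below it. The fit took technical libraries as samples, so its SE understates the spread between clones. The fitted log2 difference between all mutants and controls was -2.01 (SE 0.46) in ciliated and -4.32 (SE 0.77) in non-ciliated cells. It depended on single clones: without Wdr34-1 it was -3.94 in ciliated cells, without Wdr34-3 it was -1.59 and without Wdr60 it was -1.53, and without Co2 it was -3.16 in non-ciliated cells, against -6.64 without the Wdr34 clone. Without G7 it was -1.99 in ciliated cells. Co2 was the highest non-ciliated control in Dcdc2a and G7 the second-highest ciliated one, and both were the controls with low Cdh1 and Epcam and with the highest Pax2, Pax8 and Cdh16 of their state, whereas Wdr34-3, with the same low epithelial sum as G7, was among the lowest ciliated clones in Dcdc2a. They were also the controls highest in proximal tubule markers, with sums of 275 to 300.2 CPM in Co2 and 318 to 553 CPM in G7, against 17.7 to 132 and 15.5 to 32.5 CPM in the other controls and 15.5 to 78.8 CPM in all mutants. That sum was carried by Lrp2, the endocytic receptor megalin (275 CPM in Co2 and 455 CPM in G7), whereas its partner Cubn was lower in Co2 (13.3 CPM) than in the other non-ciliated controls (14.1 to 22.7 CPM) and Slc34a1 was at 0. The part of either marker group in the Dcdc2a difference was not tested.

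**Figure D1:**
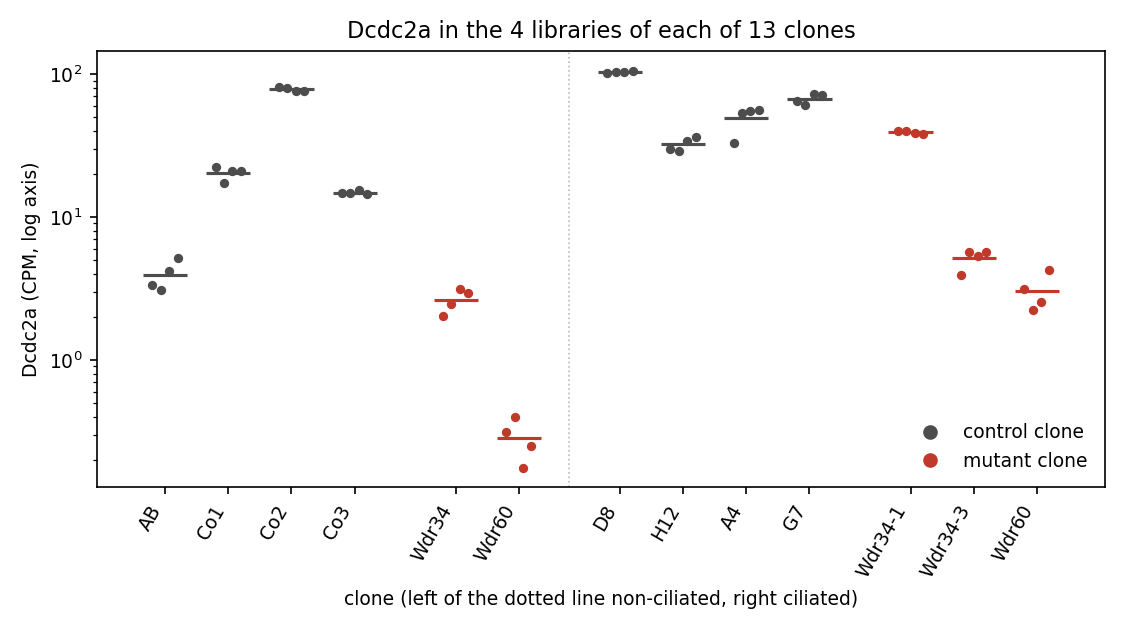
Dcdc2a in CPM on a log axis, with 1 point per library, a bar for the mean of each clone's 4 libraries, controls in grey and mutants in red. Wdr34-1 at 39.3 CPM lies among the ciliated controls, Wdr34-3 and Wdr60 lie below them, and non-ciliated Wdr34 lies next to control AB.

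None of the other 6 members was called in mutants of either state (a call needed an adjusted p below 0.05 in edgeR's quasi-likelihood test, Benjamini-Hochberg over all genes, together with a change of 2-fold or more). In ciliated cells, 0 of 6 were called lower and 0 called higher, where 0.226% and 0.418% of 11950 genes tested were. In non-ciliated cells, 0 of 6 were again called in either direction, where 2.57% of 12012 genes were called lower and 0.491% higher. At these shares 0 of 6 is close to the background, so the counts show nothing particular to the members. With the libraries of a clone summed, the 95% intervals of the difference left out a 2-fold fall for all 6 in ciliated cells (lowest bound -0.57, Anks6) and for 5 of 6 in non-ciliated cells (lowest bound -0.79, Anks6), Nek8 being the exception. At an unadjusted p under 0.05, 2 of the 6 differed in ciliated cells, where 19.2% of genes did, and 0 in non-ciliated cells, where 30.3% did, and DESeq2 also called 0 in each state. Without Wdr34-3, the ciliated log2 fold changes were 0.02 for Nphp4, -0.17 for Invs, -0.04 for Nek8, -0.11 for Anks6, -0.09 for Iqcb1 and 0.70 for Glis2. Without G7 they lay between -0.13 (Iqcb1) and 0.36 (Anks6), with Nek8 at 0.22 (adjusted p = 0.0242, edgeR), and without Co2 those of non-ciliated cells lay between -0.20 (Invs) and 0.20 (Nphp4), with Nek8 at -0.09. None of these was called. Because a state holds few clones, the exact 2-sided permutation of whole clones could not go below p = 0.0286 in ciliated and p = 0.0667 in non-ciliated cells.

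Nphp4, the transition zone member, overlapped between mutants and controls in both states. Its clone means were 24.5 to 33.2 CPM in ciliated mutants and 22.0 to 34.4 CPM in ciliated controls, and 18.9 to 23.7 CPM against 16.8 to 28.0 CPM in non-ciliated cells. The log2 fold change was 0.13 (SE 0.10, adjusted p = 0.521, edgeR) in ciliated and 0.03 (SE 0.13, adjusted p = 0.890, edgeR) in non-ciliated cells. With the libraries of a clone summed, the 95% interval of the difference ran from -0.37 to 0.63 and from -0.55 to 0.64, so that a change of 2-fold in either direction lay outside it.

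Among inversin compartment members, Invs overlapped between mutants and controls in both states. Its clone means were 39.7 to 49.2 CPM in ciliated mutants and 38.7 to 51.6 CPM in controls, with a log2 fold change of -0.07 (SE 0.07, adjusted p = 0.642, edgeR), and 54.7 to 58.0 CPM against 53.2 to 69.8 CPM in non-ciliated cells, with -0.13 (SE 0.09, adjusted p = 0.336, edgeR). The intervals over summed clones ran from -0.44 to 0.31 and from -0.53 to 0.27. Every mutant clone thus lay within the control range of Invs.

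Nek8, the kinase of that compartment, had clone means of 51.8 CPM in Wdr34-1, 64.3 CPM in Wdr34-3 and 60.6 CPM in Wdr60, against 48.2 to 78.4 CPM in ciliated controls (log2 fold change 0.04, SE 0.10, adjusted p = 0.887, edgeR). In non-ciliated cells the Wdr34 clone had 17.9, 16.9, 16.1 and 13.4 CPM in its libraries, and its mean of 16.1 ± 1.91 CPM was the lowest of the 6 clones, with libraries overlapping those of controls Co1 (18.0 ± 1.35 CPM) and AB (19.3 ± 2.92 CPM). The Wdr60 clone lay within the controls at 23.3 ± 4.89 CPM. The log2 fold change of both clones was -0.36 (SE 0.19, adjusted p = 0.194, edgeR), and its interval over summed clones, -1.21 to 0.51, did not leave out a 2-fold fall.

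Anks6, the partner of Nek8, was highest in Wdr34-3, with 50.6, 44.2, 46.7 and 48.1 CPM, above the highest control clone mean of 41.6 CPM in G7, though its lowest library overlapped those of that clone. The other ciliated mutants had 27.6 and 29.8 CPM, between the controls at 20.5 and 41.6 CPM. The ciliated log2 fold change was 0.18 (SE 0.16, adjusted p = 0.602, edgeR) and went to -0.11 without Wdr34-3. In non-ciliated cells, Wdr34 at 15.8 CPM and Wdr60 at 24.4 CPM lay within the controls at 15.6 to 29.4 CPM (log2 fold change -0.07, SE 0.15, adjusted p = 0.806, edgeR).

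Iqcb1, the Cep290 partner, was lowest in Wdr34-3 among ciliated clones. That clone had 24.2, 23.2, 27.4 and 25.2 CPM, against control clone means of 28.6 to 37.0 CPM, with libraries overlapping those of H12 and A4. Wdr34-1 and Wdr60, at 32.7 and 29.3 CPM, lay within the controls. The log2 fold change of all 3 clones was -0.18 (SE 0.08, unadjusted p = 0.0300, adjusted p = 0.203, edgeR), and permutation of whole clones gave an exact p of 0.286. In non-ciliated cells, means of 23.6 and 24.6 CPM lay within 19.2 to 27.0 CPM in controls (log2 fold change 0.06, SE 0.09, adjusted p = 0.706, edgeR).

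Glis2 was higher, not lower, in some ciliated mutant clones. Wdr34-1 had 320, 307, 314 and 296 CPM, and Wdr60 had 333, 300.1, 357 and 325 CPM, whereas the control clones had means of 241 ± 9.19 (A4), 223 ± 6.49 (D8), 202 ± 13.1 (H12) and 108 ± 4.43 CPM (G7). All libraries of these mutant clones lay above all control libraries, but Wdr34-3 at 182 ± 8.09 CPM lay between H12 and G7. The log2 fold change over the 3 clones was 0.49 (SE 0.16, unadjusted p = 0.00391, adjusted p = 0.0774, edgeR), with an exact permutation p of 0.257 over clones. DESeq2 gave an adjusted p of 0.0455, and without Wdr34-3 the log2 fold change was 0.70 (adjusted p = 0.00904, edgeR), both under the limit on size. Without G7, the lowest ciliated control in Glis2, the log2 fold change was smaller than with all controls and was not called. In non-ciliated cells, Wdr34 at 134 CPM and Wdr60 at 121 CPM lay within the controls at 87.5 to 150 CPM (log2 fold change 0.12, SE 0.11, adjusted p = 0.476, edgeR).

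**Figure D2:**
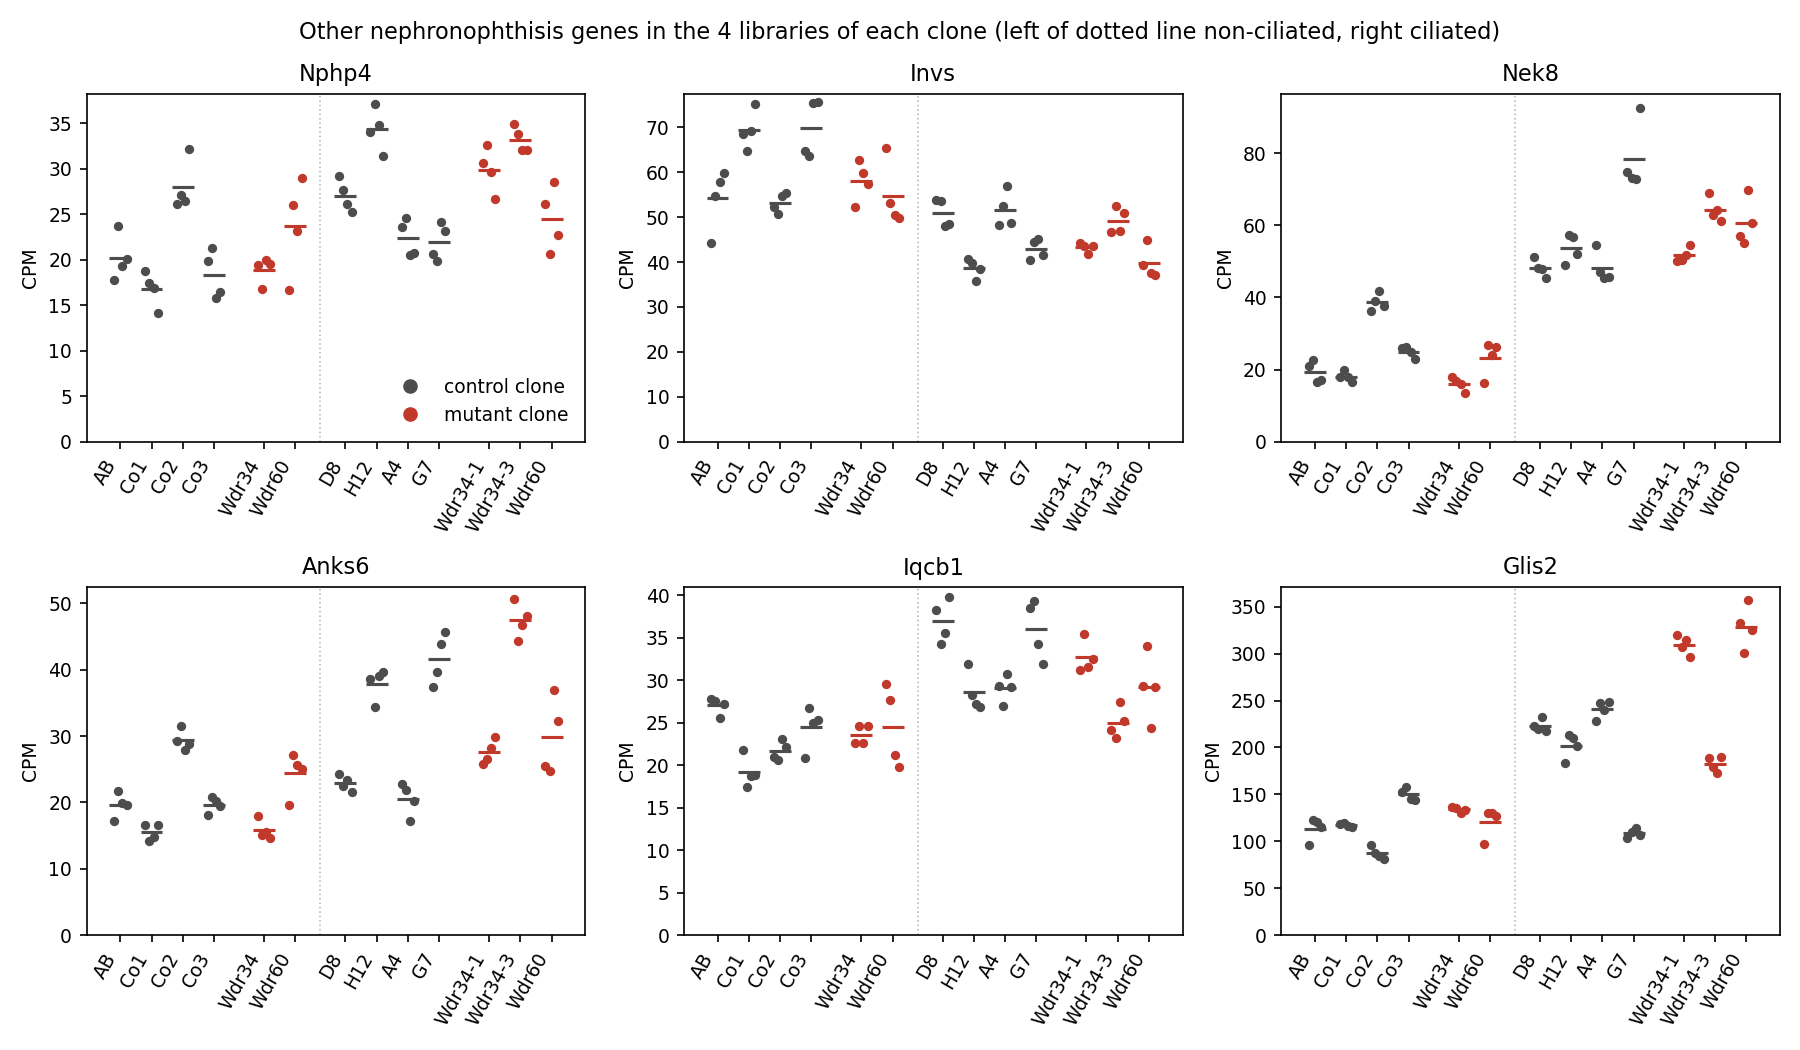
The other 6 members in CPM on linear axes from 0, with 1 point per library, a bar for each clone mean, controls in grey and mutants in red. Mutant clones lie mostly within the controls of their state, with Glis2 of ciliated Wdr34-1 and Wdr60 above them.

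Of 30 values of the other members in single mutant clones, 25 lay within the range of the control clones, 2 lay below it (Iqcb1 in Wdr34-3 and Nek8 in non-ciliated Wdr34) and 3 above it (Anks6 in Wdr34-3, Glis2 in Wdr34-1 and in ciliated Wdr60). Over all genes tested, 14.9% of such values lay below and 16.6% above. The 30 values spanned 63.7% to 170% of the control mean, against 0.968% to 62.4% for Dcdc2a. Each clone was also compared with the controls of its state. In such a comparison 1 arm is a single clone with technical libraries, so its p-values describe that clone and say nothing of the genotype. By edgeR and by DESeq2, 0 of 6 members were called in any of the 5 clones, where few genes were. In non-ciliated Wdr34, 1.97% of genes were called lower and 0.275% higher, in non-ciliated Wdr60 2.43% and 0.986%, in Wdr34-1 0.46% and 0.218%, in Wdr34-3 2.16% and 3.64%, and in ciliated Wdr60 1.29% and 0.642%. Glis2 in ciliated Wdr60 stood at a log2 fold change of 0.75 (SE 0.21, adjusted p = 0.0381, edgeR) and Iqcb1 in Wdr34-3 at -0.40 (SE 0.11, adjusted p = 0.0177, edgeR). At the adjusted p alone, 2.91% of all genes were higher in the former clone and 10.9% lower in the latter. Anks6 in Wdr34-3 stood at 0.61 (SE 0.22, adjusted p = 0.0515, edgeR), Glis2 in Wdr34-1 at 0.66 (SE 0.21, adjusted p = 0.121, edgeR) and Nek8 in non-ciliated Wdr34 at -0.65 (SE 0.24, adjusted p = 0.0870, edgeR).

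**Figure D3:**
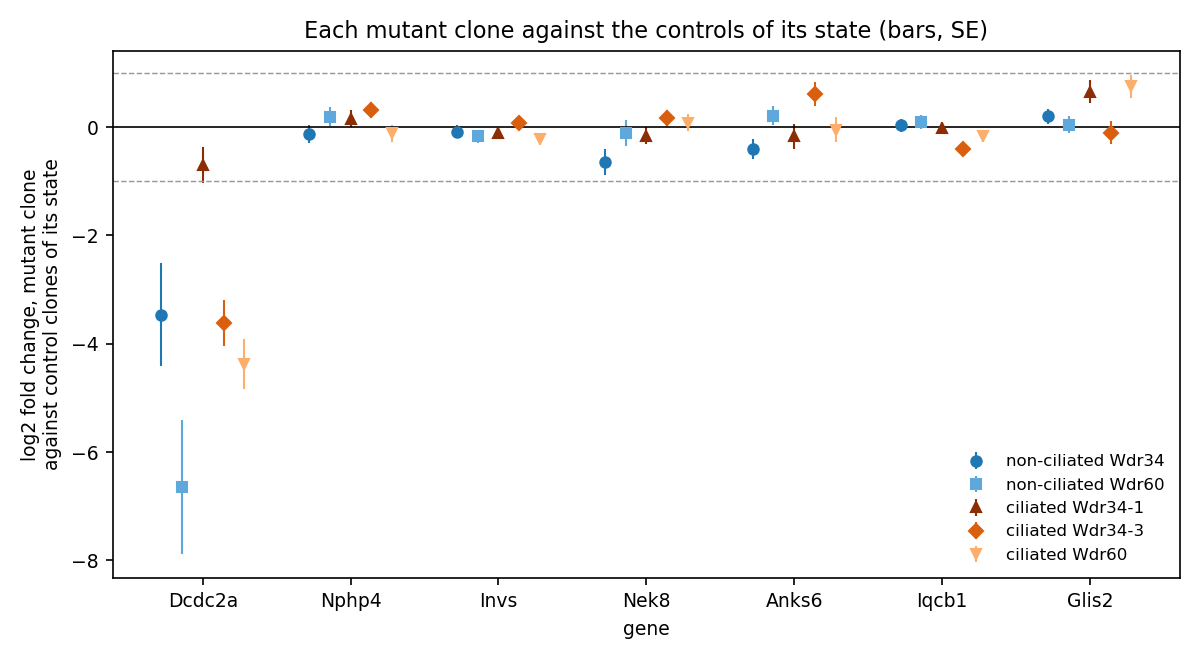
Log2 fold change of each mutant clone against the control clones of its state, with SE bars, for the 7 members (dashed lines, a log2 fold change of 1 in size). Dcdc2a ranges from -0.69 to -6.64, and all other values lie between the dashed lines.

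The difference between mutants and controls was also compared between states. For the other 6 members, none of the differences of the mutant effect was called (adjusted p from 0.345 to 0.851, edgeR, where 1.12% of 12544 genes were called higher and 0.0638% lower; DESeq2 called 0), and 1 passed an unadjusted p under 0.05, where 14.4% of genes did. That was Nek8, whose log2 mutant effect was 0.40 higher in ciliated cells (SE 0.20, unadjusted p = 0.0496).

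Control cells of the 2 states were compared next. The control counts of Dcdc2a took part in choosing the set, so its values are again a description. Nek8 was 48.2 to 78.4 CPM over the clone means of ciliated controls and 18.0 to 38.7 CPM in non-ciliated controls, so that the groups did not overlap, and its log2 fold change was 1.17 (SE 0.14, adjusted p = 9.57e-09, edgeR). It was the 1 member of the other 6 called higher in ciliated controls, where 6.29% of 11856 genes were called higher, and 0 were called lower, where 3.99% were (edgeR; DESeq2 also called 0 lower, and 1 had a lower level at an unadjusted p under 0.05, a limit that 64.4% of genes passed in either direction). Nek8 was just short of the size limit without G7 (0.99, adjusted p = 2.99e-07, edgeR) and stood at 1.44 without Co2. Dcdc2a was 32.3 to 103 CPM against 3.93 to 78.5 CPM, overlapping through Co2, with a log2 difference of 1.11 (SE 0.40) that was 0.74 without AB and 2.26 without Co2.

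The remaining members differed less. Iqcb1 (28.6 to 37.0 CPM against 19.2 to 27.0 CPM, log2 fold change 0.49, SE 0.08, adjusted p = 1.85e-06, edgeR) did not overlap between the groups either. Invs went the other way, with 38.7 to 51.6 CPM in ciliated and 53.2 to 69.8 CPM in non-ciliated controls (-0.43, SE 0.08, adjusted p = 2.03e-05, edgeR). Over clone means, 10.6% of genes lay above all non-ciliated controls and 12.5% below them.

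Glis2 (log2 fold change 0.72, SE 0.13, adjusted p = 2.73e-05, edgeR), Anks6 (0.54, SE 0.14, adjusted p = 0.00131, edgeR) and Nphp4 (0.34, SE 0.11, adjusted p = 0.00754, edgeR) were higher in ciliated controls with overlapping clones. Thus 5 of the other 6 members were higher and 1 lower at the adjusted p alone, where 31.2% and 29.7% of genes were. These tests take libraries as samples. With the libraries of each clone summed, Nek8 alone of these 6 stayed under an adjusted p of 0.05 (adjusted p = 0.0296, edgeR), and the others had 0.0786 to 0.324. Permutation of whole clones, an alternative chosen after seeing the data, gave the smallest possible exact p of 0.0286 for Nek8, Iqcb1 and Invs (0.124 after adjustment over all genes).

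**Figure D4:**
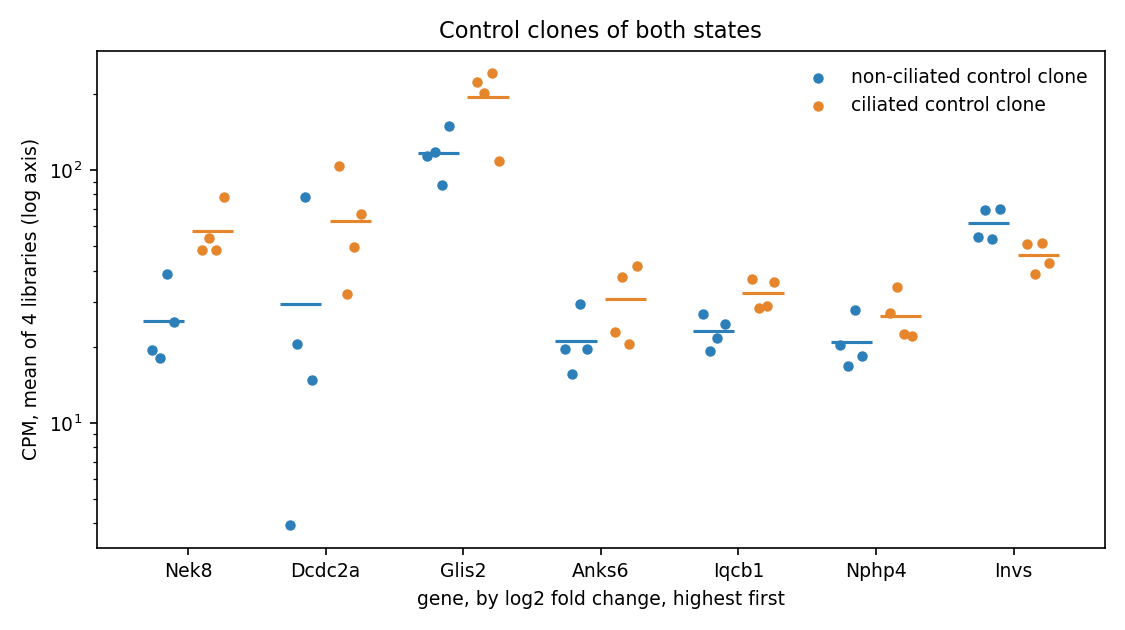
Control clones of both states, with 1 point per clone (mean CPM of 4 libraries, log axis) and a bar for the group mean. The 4 ciliated clones of Nek8 and Iqcb1 lie above the 4 non-ciliated ones, those of Invs lie below them, and Dcdc2a spreads from 3.93 to 103 CPM.

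Per kilobase of exon (union of GENCODE vM21 exons), Glis2 had the highest level of the members in ciliated controls, 44.3 ± 13.5 CPM per kb (SD over 4 clones), followed by Nek8 with 10.9 ± 2.76, Dcdc2a with 7.61 ± 3.67, Iqcb1 with 6.06 ± 0.828, Anks6 with 5.74 ± 1.97, Nphp4 with 4.38 ± 0.953 and Invs with 4.03 ± 0.549. From Nek8 to Invs, each neighbour in this order overlapped the next over clones, whereas Glis2 lay above all others. In non-ciliated controls, Glis2 again led with 26.8 ± 5.86 CPM per kb, and the other 6 members lay between 3.45 and 5.39 CPM per kb, Dcdc2a at 3.55 ± 4.03.

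Across the 13 clones, centred on the mean of their state, Dcdc2a showed little likeness to the other members (Pearson's r from -0.36 to 0.28 on log2(CPM + 1)). Nek8 and Anks6 ran most alike, with r = 0.78 and Spearman's rho = 0.86. These correlations are descriptive, since libraries, depth and normalisation are shared by all genes. Among 11709 genes tested in both states, the genes closest to Dcdc2a were Arid3b (r = 0.869), Npr2 (0.868), Cbx5 (0.865), Ccnjl (0.864) and Tia1 (0.862). The closest gene to each other member was Arl3 for Nphp4 (0.845), Rdh11 for Invs (0.952), Fhod1 for Nek8 (0.949), Man2b2 for Anks6 (0.966), Chchd5 for Iqcb1 (0.824) and Arhgef37 for Glis2 (0.929).

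The genes next to Dcdc2a on its chromosome had smaller log2 fold changes than Dcdc2a in both states. Mrs2, a mitochondrial magnesium transporter whose span begins 67.8 kb to the left of the start of Dcdc2a, had a log2 fold change of -0.43 in ciliated and -0.70 in non-ciliated mutants, and Gpld1, a phospholipase that cleaves GPI anchors, beginning 117.5 kb to the left, had -0.41 and -0.61. None of these was called by edgeR, although Mrs2 in non-ciliated mutants passed the adjusted p (0.0171) without reaching the limit on size. In comparisons with 1 clone as the mutant arm, Mrs2 was called lower in the Wdr60 clone of each state, with 14.2 ± 2.79 CPM against 18.4 to 44.6 CPM in ciliated controls (log2 fold change -1.11, adjusted p = 0.0334, edgeR) and 14.1 ± 1.87 CPM against 18.6 to 45.1 CPM in non-ciliated controls (-1.06, adjusted p = 0.0121, edgeR). Gpld1 was called lower in the ciliated Wdr60 clone (-1.21, adjusted p = 0.0130, edgeR). In Wdr34-3, where the log2 difference of Dcdc2a was -3.62, Mrs2 stood at 0.02 (SE 0.28) and Gpld1 at 0.06 (SE 0.26).

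Control Co2 was highest of the non-ciliated clones in Dcdc2a, Mrs2 (45.1 CPM) and Gpld1 (35.9 CPM), and controls D8 and G7 were the highest ciliated clones in all 3 genes. Over the 13 clones centred by state, r with Dcdc2a was 0.75 for Mrs2 and 0.74 for Gpld1, with Wdr34-3 going against it. Aldh5a1, which encodes succinic semialdehyde dehydrogenase, beginning 147.7 kb to the left, was called lower in non-ciliated mutants (-2.33, adjusted p = 0.0184, edgeR), yet its 2 mutant clones at 0.320 and 0.550 CPM lay among controls at 0.293 to 5.23 CPM, the call was lost with the libraries of a clone summed, where 0 of 13406 genes were called, and r with Dcdc2a was 0.08. Tdp2, beginning 223.6 kb to the left, and the 4 nearest tested genes to the right, beginning 3404.8 to 4851.3 kb from the start of Dcdc2a (2610307P16Rik, Sox4, Cdkal1 and E2f3), lay between -0.31 and 0.11 in both states.

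**Figure D5:**
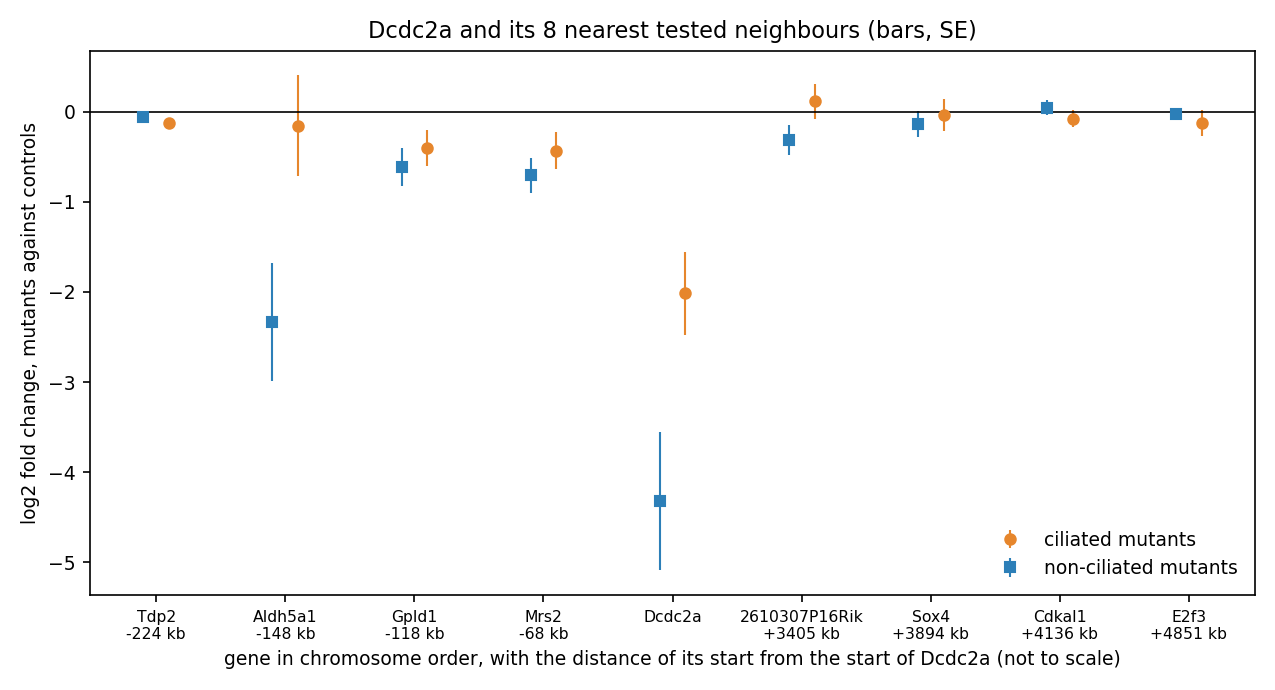
Log2 fold change of mutants against controls, with SE bars, for Dcdc2a and the 4 nearest tested genes on each side in chromosome order (spacing not to scale). Dcdc2a falls below its neighbours in both states, and Aldh5a1, with clone means of 0.265 to 5.23 CPM, stands at -2.33 in non-ciliated mutants.

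Of 19 further nephronophthisis genes, 17 were tested in each state and 0 were called in mutants of either state by edgeR, where 0.226% and 2.57% of all genes were called lower and 0.418% and 0.491% higher. At an unadjusted p under 0.05, 8 of the 17 differed in ciliated cells, where 19.2% of all genes did, and 3 in non-ciliated cells, where 30.3% did. Of the 17, 6 had a positive log2 fold change in ciliated and 10 in non-ciliated mutants. Their median log2 fold change was -0.04 in ciliated and 0.04 in non-ciliated mutants, beside -0.01 and 0.00 over all genes tested. Rpgrip1l stood at 0.07 and -0.26, and Cep290 at -0.26 and -0.16, none called. In non-ciliated cells the clone means of Rpgrip1l lay below all controls (28.6 and 30.8 against 33.8 to 37.3 CPM), where 5.97% of all genes did. Those of Cep164, a distal appendage protein, lay above all controls (46.7 and 46.9 against 43.2 to 46.0 CPM), where 6.97% did.

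Between control states, 1 of these 17 genes was called lower and 0 higher by edgeR, near the 3.99% and 6.29% of all genes. Ttc21b, a retrograde transport component, had 12.6 to 18.7 CPM in ciliated and 32.4 to 53.3 CPM in non-ciliated controls (log2 fold change -1.54, SE 0.10, adjusted p = 4.66e-14, edgeR). Cep290 at -0.72, Ahi1 at -0.80 and Cep164 at -0.36 also did not overlap between the control groups, all lower in ciliated cells.

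Of 9 further genes with doublecortin domains, 3 were tested in each state and 0 were called in mutants against controls by edgeR (1 in ciliated and 0 in non-ciliated cells at an unadjusted p under 0.05). Dclk1, a doublecortin-like kinase, was too low to be tested there. It reached 14.5 ± 1.34 CPM in Wdr34-3, where every other clone had at most 0.277 CPM. In the comparison of that clone with controls, Dclk1 passed the count filter only through Wdr34-3, so no test of it is given. In non-ciliated mutants, 2.57% of all genes were called lower and 0.491% higher, and in Wdr34-3 2.16% and 3.64%. Of the relatives of Glis2, 4 were tested in each state and 1 was called, Glis1, lower in non-ciliated mutants (log2 fold change -1.01, SE 0.33, adjusted p = 0.0411, edgeR) at means of 0.554 against 1.12 CPM with overlapping clones. Of 13 genes of the Dishevelled and Wnt response list, 8 were tested in each state and 1 was called, Tcf7, a T-cell factor of that pathway, lower in non-ciliated mutants. Tcf7 had 2.72 and 5.20 CPM in non-ciliated mutant clones against 7.70 to 9.78 CPM in controls (-1.18, SE 0.17, adjusted p = 9.23e-05, edgeR). With the libraries of a clone summed, the calls of Tcf7 and Glis1 were both lost (adjusted p = 0.976 for each, edgeR), and 0 of 13406 genes were called. In the comparison of all ciliated mutants with controls, 0 genes of either list were called by edgeR, with 1 and 3 at an unadjusted p under 0.05, whereas comparisons with 1 clone as the mutant arm had calls in both lists. Tcf7 was called lower in Wdr34-1, and in Wdr34-3 the Wnt target gene Axin2 was called higher and Glis1 lower. Sp5, also a Wnt target gene, was 2.18 CPM in Wdr34-3 against at most 0.795 CPM in ciliated controls. It passed the count filter only through Wdr34-3, so no test of it is given. In non-ciliated cells, Tcf7 was called lower in Wdr34. Gli1, a transcription factor of Hedgehog signalling, was 1.19 CPM in Wdr60 against 0.193 to 0.511 CPM in controls. It passed the count filter only through Wdr60, so no test of it is given. Between control states, 2 of 7 tested genes of the Wnt list were called higher in ciliated cells, where 6.29% of 11856 genes were. They were Dvl2 (log2 fold change 1.08) and Axin2 (1.07), with adjusted p = 0.0417 and 0.256 (edgeR) when the libraries of a clone were summed.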

How the data were processed

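mRNA-seq libraries of 13 clones, 4 technical replicates each, were analysed. The deposited values are raw read counts per gene symbol, which the authors obtained with Rsubread featureCounts on GRCm38 (mm10), with R 3.4.4 and DESeq2 1.18.1 named in the submitters' processing notes. The strand setting is not given in the sources used here. Libraries held 14816218 to 28084979 counts, so that 1 CPM is about 15 to 28 counts. Counts were normalised by TMM, filtered with filterByExpr and tested with the quasi-likelihood test of edgeR 4.0.16 (limma 3.58.1, R 4.3.3), with Benjamini-Hochberg adjustment over all genes tested. Calls needed an adjusted p below 0.05 together with a change of 2-fold or more. Libraries entered as samples, so p-values measure the spread between technical libraries and few clones. Whole clones were therefore also permuted exactly (2-sided, on mean log2(CPM + 1)), and libraries of a clone were summed. Alternatives were DESeq2 1.42.0, RLE size factors, 2 other count filters, voomLmFit with clones as a block, a replicate block and leaving out each clone or replicate. In data simulated for ciliated mutants against controls (11950 genes), edgeR recovered 96% of 2-fold and 99% of 4-fold changes with 24 false calls. The simulation carried the spread between libraries but not that between clones, so it overstates what 3 against 4 clones can show. Named genes beyond the members were those of the inversin compartment, the Nphp4 module and the partners of Iqcb1, other list genes called or without overlap between clone means, the 5 genes most like a member, and the 4 nearest tested genes on each side of Dcdc2a. Members and lists were chosen with earlier results of these data known. Some genes that this rule names are not reported here.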

Additional observations from a re-analysis of the deposited data

Results flagged for a closer look

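Over the 7 members, 91 groups of 4 replicate libraries of a clone and 14 groups of 4 control clones were examined. In 4 groups of libraries, 1 library lay far from the others, and in 0 groups of control clones did a clone. Chance gives about 1 in 20 groups. Dcdc2a was 32.9 CPM in replicate 1 of ciliated control A4, against 53.1 to 56.1 CPM in its other libraries. Nphp4 was 32.2 CPM in replicate 4 of non-ciliated control Co2, against 26.2 to 27.1 CPM. Nek8 was 92.6 CPM in replicate 4 of ciliated control G7, against 72.9 to 74.8 CPM. Glis2 was 96.7 CPM in replicate 1 of the non-ciliated Wdr60 clone, against 127 to 130 CPM.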

How the results depend on the processing

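The count of 0 other members called in mutants of either state was also found under the alternatives, of which some could call little: with the libraries of a clone summed, 0 of 13243 genes in ciliated and 0 of 13406 in non-ciliated cells were called at all, and voomLmFit with clones as a block called 5 higher and 2 lower in ciliated and 0 higher and 9 lower in non-ciliated cells. Those settings say nothing of stability. Without the limit on size, 1 member was called lower in Wdr34-3, 1 higher in ciliated Wdr60, and 5 higher and 1 lower in ciliated controls. The count of other members called higher in ciliated controls, 1 (Nek8), ran from 0 (without G7, at the limit on size) to 1 when leaving out each clone or replicate, and was 0 with exact permutation of clone means, which was chosen after seeing the data. The cause was not tested. Uncalled log2 fold changes near 0 changed sign when single clones or replicates were left out. In ciliated mutants, Nek8 ran from -0.0441 to 0.224 and Anks6 from -0.11 to 0.36. In non-ciliated mutants, Anks6 ran from -0.41 to 0.21, Nphp4 from -0.13 to 0.20, Iqcb1 from -0.0182 to 0.14 and Glis2 from -0.0038 to 0.26. In non-ciliated Wdr34, Iqcb1 ran from -0.0410 to 0.120 and Nphp4 from -0.219 to 0.0361. In non-ciliated Wdr60, Nek8 ran from -0.25 to 0.16, Glis2 from -0.0750 to 0.186 and Iqcb1 from -0.0150 to 0.178. In Wdr34-1, Iqcb1 ran from -0.0665 to 0.0622 (0.0059 with a filter of 1 count in any library) and Nek8 from -0.229 to 0.0222. In Wdr34-3, Glis2 ran from -0.288 to 0.0200. In ciliated Wdr60, Nphp4 ran from -0.196 to 0.0387 and Anks6 from -0.20 to 0.13. Same-numbered replicates of different clones correlated from -0.59 to 0.86. Differently numbered ones were not compared, so whether the numbers pair libraries is not settled. With the replicate number as a block, Dcdc2a stood at -2.01 and -4.32 and no count changed.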
